A study of Mus musculus with 4 samples.

Results

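The transcripts described here are those of 9 genes of the anterior pituitary: the hormone genes Gh (growth hormone), Prl (prolactin), Cga (the alpha subunit shared by the glycoprotein hormones), Tshb (the beta subunit of thyrotropin) and Lhb (the beta subunit of luteinizing hormone), the transcription factor genes Pou1f1, Tbx19 and Pitx1, and Ghrhr, the receptor for growth hormone-releasing hormone. They take 10 of the 33696 gene rows of the files, since Lhb stands for 2 identifiers, which were added together for levels and kept apart in fits. They were followed through nuclei of mouse hypothalamus, where they serve as a gauge of RNA that has left its cell and is captured with another nucleus (free RNA). The genes were chosen by their counts, high in pituitary nuclei and in 1 library, so those levels are given as a description.

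Anterior pituitary cells each make mainly 1 family of secreted hormone: somatotrophs make growth hormone, lactotrophs prolactin, thyrotrophs and gonadotrophs the glycoprotein hormones. The transcription factor POU1F1 is needed for somatotrophs, lactotrophs and thyrotrophs, TBX19 (also called TPIT) drives Pomc in corticotrophs, PITX1 acts across the lineages, and GHRHR sits on somatotrophs. The gland hangs below the hypothalamus on its stalk, and neurons and glia of the hypothalamus are not known as sources of these hormones in quantity.

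All 4 libraries came from wild-type C57BL/6J mice with a conventional (specific pathogen-free) flora, perfused before the hypothalamus was dissected and frozen. The ImP libraries (ImP 3 and ImP 4) came from mice given imidazole propionate, a bacterial product of histidine, at 350 µg per day for 2 weeks by a minipump in the peritoneal cavity, and the vehicle libraries (vehicle 1 and vehicle 2) from mice given vehicle in the same way; the diluent of imidazole propionate was sterile distilled water with 1% DMSO. The labels give no age or sex for the mice, leave unsaid whether libraries are separate animals, and carry the word baseline in every title, so the p-values below measure the spread between these libraries, which may be technical. Nuclei, not whole cells, were captured in droplets with 10x Genomics 3′ chemistry, and transcripts were counted by unique molecular identifiers (UMIs). The hypothalamic peptide transcript Avp was at 205 and 328 CPM (UMIs of the gene per 1000000 UMIs of the nuclei summed) over all kept nuclei of the vehicle libraries and at 360 and 520 CPM in the ImP libraries.

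The libraries held 11255 to 16348 barcodes and 48060194 to 51945297 UMIs, of which 10917 to 15725 barcodes passed the limits of 500 genes and 5% mitochondrial UMIs. Barcode sequences shared by any pair of libraries numbered 39 to 76. Nuclei were placed by marker lists as neuron-like, astrocyte-like, oligodendrocyte-like, precursor-like or microglia-like, and are called by the plain names from here; glia are the last 4 together. Between 10.2% and 14.5% of kept nuclei could not be placed. These classes are ranges on a count of markers, and 18.3% to 24.8% of the placed nuclei lay near the limits of the rule. In neurons the median nucleus showed 5 of 9 neuron markers and 1 astrocyte and 1 oligodendrocyte marker in every library. Doublets were not called; nuclei with very many UMIs were left out in an alternative instead.

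A nucleus was called pituitary where Gh, Prl or Cga reached 5000 CPM with at least 10 UMIs. By this rule 7 of 10917 kept nuclei were pituitary in vehicle 1 (0.0641%, exact 95% binomial interval 0.0258% to 0.132%), 1 of 13023 in vehicle 2 (0.00768%, 0.000194% to 0.0428%), 6 of 14757 in ImP 3 (0.0407%, 0.0149% to 0.0885%) and 759 of 15725 in ImP 4 (4.83%, 4.50% to 5.17%). ImP 4 therefore stood apart from the other libraries, ImP 3 included. Of its 759 nuclei, 580 passed by Gh, 191 by Prl and 104 by Cga, so that some passed by more than 1 hormone. Whether this came from the treatment, the dissection or the handling of that library cannot be told apart with 1 such library. Intervals here and below cover counting error only.

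The promoters of 6 of the 9 genes were in the RefSeq table (GRCm38.p6). Those of Prl, Cga and Pou1f1 are shown: Prl and Cga because these hormone transcripts were both highest in ImP 4, and Pou1f1 because its factor is known to act on Prl. Each run is the 250 bases before an annotated start, 5′ to 3′ on the strand of the gene, at chr13:27057320-27057569 (plus strand) for Prl, chr4:34893529-34893778 (plus strand) for Cga and chr16:65520262-65520511 (plus strand) for the first of the 2 starts listed for Pou1f1; capitals mark matches to ATGNATA, a POU1F1-type motif.
Prl: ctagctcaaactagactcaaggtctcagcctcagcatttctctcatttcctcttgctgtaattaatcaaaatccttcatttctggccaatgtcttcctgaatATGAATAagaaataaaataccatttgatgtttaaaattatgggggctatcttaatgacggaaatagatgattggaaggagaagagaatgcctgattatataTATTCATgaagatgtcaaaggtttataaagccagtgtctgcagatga
Cga: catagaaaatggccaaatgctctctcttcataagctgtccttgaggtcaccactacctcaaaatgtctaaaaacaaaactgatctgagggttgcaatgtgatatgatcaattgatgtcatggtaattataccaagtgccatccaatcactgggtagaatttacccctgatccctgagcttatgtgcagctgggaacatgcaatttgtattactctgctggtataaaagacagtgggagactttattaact
Pou1f1: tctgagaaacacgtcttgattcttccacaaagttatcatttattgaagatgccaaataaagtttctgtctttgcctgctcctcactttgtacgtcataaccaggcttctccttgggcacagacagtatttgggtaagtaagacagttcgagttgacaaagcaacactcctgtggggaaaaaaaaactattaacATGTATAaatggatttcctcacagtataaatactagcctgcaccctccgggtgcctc
ATGNATA was searched on both strands. Prl held 2 matches, 148 to 142 bases before the start on the strand of the gene and 47 to 41 bases before it on the other strand, and Pou1f1 held 1, 57 to 51 bases before the start. Cga, Tshb, Lhb and Tbx19 held none in this window, and the PITX-type motif TAATCC was found in none of the 6 genes, so no matches of the 2 motifs overlapped. Of all 32851 promoters in the table, 7.92% held ATGNATA and 6.25% held TAATCC over the same length. A match is a run of letters and was not tested as a binding site.

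Gh had the most UMIs of the 9 genes in every library. In pituitary nuclei it stood at 28049 CPM in vehicle 1, 57493 CPM in the single nucleus of vehicle 2, 10231 CPM in ImP 3 and 23660 CPM in ImP 4. These levels are what chose the nuclei and are given without a test. In neurons, Gh was at 9.13 CPM in vehicle 1, 3.87 CPM in vehicle 2, 19.2 CPM in ImP 3 and 1007 CPM in ImP 4. ImP 4 was 52.5 times the next library, ImP 3, while vehicle 1, vehicle 2 and ImP 3 lay within one order of magnitude. In glia the Gh level was 24.1, 6.64, 43.2 and 2282 CPM in the same order of libraries, and ImP 4 was 52.8 times ImP 3.

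Prl followed Gh at a lower level. In neurons it was at 2.63, 1.14, 4.74 and 380 CPM, and in glia at 6.77, 1.97, 11.3 and 848 CPM, in the order vehicle 1, vehicle 2, ImP 3, ImP 4. ImP 4 exceeded ImP 3 by 80.2 times in neurons and 74.7 times in glia. Cga, made by thyrotrophs and gonadotrophs, was nearly absent from the other libraries: its neuron level was 0.258, 0.858, 1.17 and 184 CPM and its glia level 0.940, 1.08, 3.37 and 419 CPM. In vehicle 1 the neuron level of Cga rested on 10 UMIs. For Gh, Prl and Cga, both ImP libraries lay above both vehicle libraries in neurons and in glia; 17.5% of the 20266 genes tested in neurons and 21.8% of the 16252 genes tested in glia were ordered in this way.

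**Figure D1:**
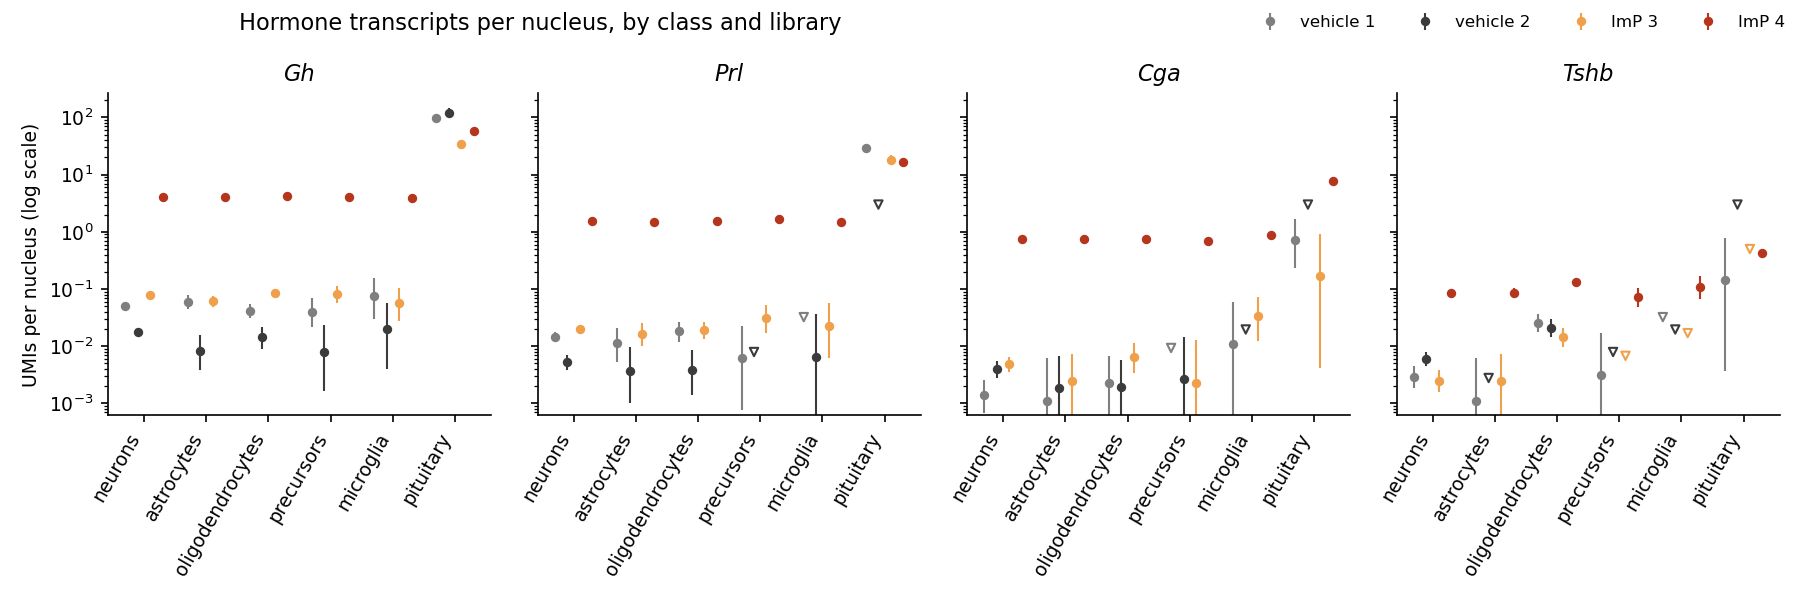
UMIs per nucleus (log scale) of Gh, Prl, Cga and Tshb in neurons, 4 classes of glia and pituitary nuclei, by library; bars are exact 95% Poisson intervals and open triangles stand at 3 counts over the number of nuclei where no UMI was seen; some bars run on below the axis. Points of ImP 4 lie at one height across neurons and glia for Gh (3.96 to 4.18 UMIs per nucleus), above those of the other libraries.

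Counted as UMIs per nucleus instead of CPM, Gh in ImP 4 was at nearly one level in every class. Neurons held 4.14 Gh UMIs per nucleus (exact Poisson interval 4.10 to 4.18), astrocytes 4.05 (3.94 to 4.17), oligodendrocytes 4.18 (4.08 to 4.27), precursors 4.11 (3.92 to 4.31) and microglia 3.96 (3.67 to 4.27). The total UMIs of these nuclei differed, with a median of 3675 in neurons and 1446.5 in glia. Prl ranged over the same 5 classes from 1.47 UMIs per nucleus in microglia to 1.66 in precursors, and Cga from 0.703 in precursors to 0.868 in microglia. Nuclei of the vessel, ventricle and meninges classes, 76 in ImP 4, held 4.12 Gh UMIs per nucleus.

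The share of nuclei with a Gh UMI was 97.0% in neurons and 97.6% in glia of ImP 4, against 4.24% and 4.41% in vehicle 1, 1.21% and 1.17% in vehicle 2, and 6.85% and 6.63% in ImP 3. Neurons and glia, neither of which is known as a source of Gh, thus lay close together in each library, although their depths differed. After thinning each nucleus to 1500 UMIs, which left out 290 neurons and 1928 glia of ImP 4, the shares in ImP 4 were 77.9% in neurons and 91.6% in glia. Most neurons of ImP 4 (70.7%) held 3 to 9 Gh UMIs, 2.97% held none and 2.66% held 10 or more. The variance of Gh UMIs over its mean was 1.61 in neurons and 1.12 in glia of ImP 4, where pure counting noise gives a ratio of 1. Nuclei called pituitary were left out, which cuts off high counts, more readily in shallow glia, and lowers these ratios. In vehicle 2 the ratio was 13.2 in neurons, where 1 nucleus with 43 Gh UMIs held 28.9% of all Gh UMIs of the class.

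**Figure D2:**
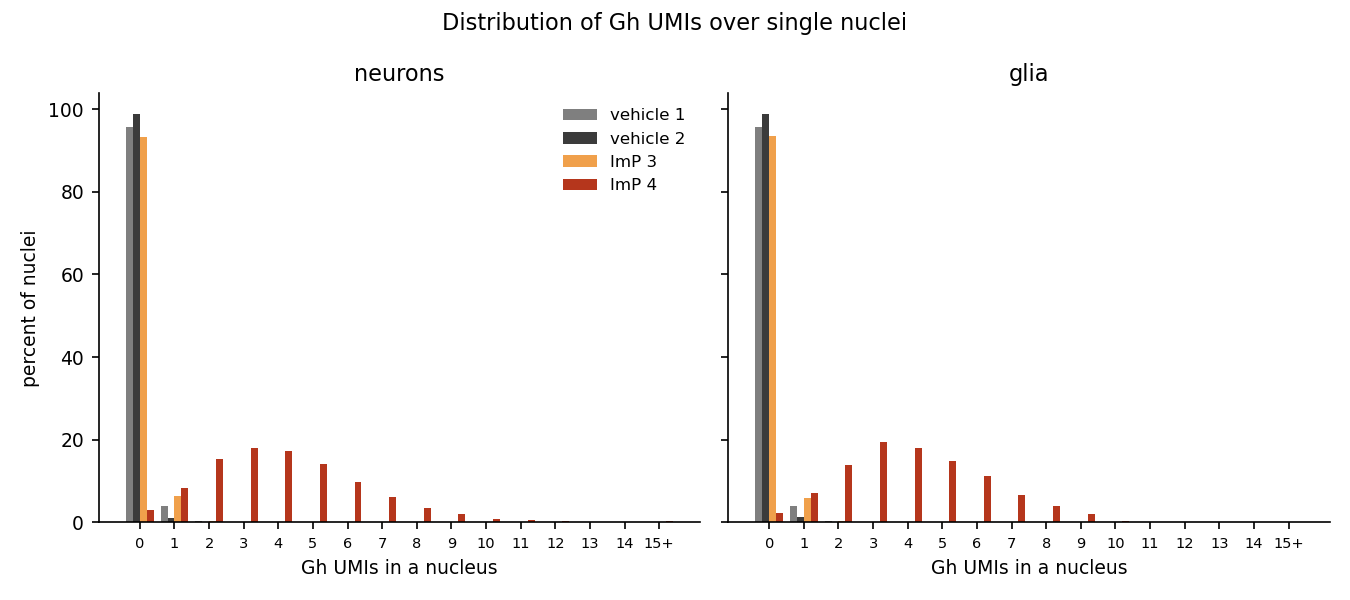
Percent of neurons (left) and glia (right) with each number of Gh UMIs, by library; the last bin holds 15 or more. In ImP 4 most nuclei hold several Gh UMIs and 2.97% of neurons hold none, whereas in the other libraries 93.2% to 98.8% of neurons hold none.

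Within ImP 4 the Gh level in CPM fell with the depth of a nucleus while the level per nucleus rose slowly. Nuclei of each class were split into 4 bins of near-equal size by their total UMIs. Nuclei called pituitary were left out, which cuts off high hormone counts more readily in the shallow bins. How much of the rise per nucleus comes from this was not tested. From the shallowest to the deepest bin of neurons the mean total went from 2085 to 6893 UMIs, the Gh UMIs per nucleus went from 3.60 to 4.65, and the Gh CPM went from 1725 to 675. Glia ran the same way, from 3.71 Gh UMIs per nucleus at a mean total of 933 to 4.58 at a mean total of 3312. Prl went from 1.39 to 1.69 UMIs per nucleus and Cga from 0.639 to 0.855 over the bins of neurons. In ImP 3, where Gh was low, the bins of neurons held 0.0790, 0.0719, 0.0810 and 0.0863 Gh UMIs per nucleus, all within overlapping Poisson intervals.

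**Figure D3:**
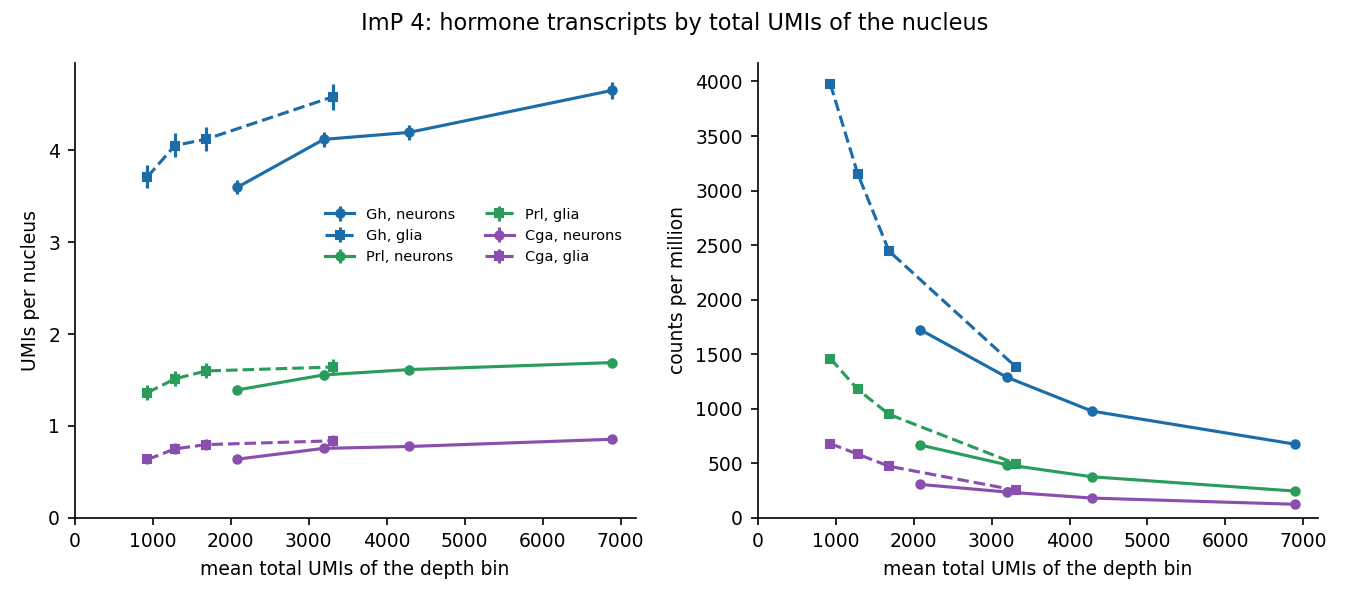
Gh, Prl and Cga in ImP 4 in 4 bins of nuclei by total UMIs (mean of each bin on the horizontal axis), as UMIs per nucleus with exact 95% Poisson intervals (left) and as CPM (right); circles and solid lines are neurons, squares and dashed lines glia. Per nucleus Gh stays between 3.60 and 4.65 UMIs in neurons, while its CPM falls from 1725 to 675.

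The proportions of the 3 hormones were close across the classes of ImP 4. Gh made up 64.1% (63.7% to 64.5%) of the summed Gh, Prl and Cga UMIs in neurons and 64.3% (63.7% to 64.9%) in glia, Prl 24.2% and 23.9%, and Cga 11.7% and 11.8%. In pituitary nuclei of ImP 4, which the rule selects by these genes, the parts were 70.9% Gh, 19.8% Prl and 9.25% Cga. The mixture was another in the other libraries: Cga made up 2.15% (1.03% to 3.91%) of the sum in neurons of vehicle 1, 14.6% (10.3% to 19.9%) in vehicle 2 and 4.67% (3.40% to 6.24%) in ImP 3. The value of vehicle 2 rests in part on 1 nucleus, which held 48.5% of the Cga UMIs of its neurons. In glia of vehicle 2 Cga made up 11.1% (4.19% to 22.6%) of the sum, from 6 Cga UMIs.

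Glia were compared with neurons of the same library by edgeR's quasi-likelihood test on summed counts with the library as a block. The rule does not compare these classes, but it acts on both sums, since nuclei called pituitary were left out. Its CPM limit removes shallow nuclei with many hormone UMIs more readily, and glia were shallower. In ImP 4, 10 or more Gh UMIs remained in 0.831% of glia and 2.66% of neurons. The test is therefore not independent of the rule. On the CPM scale, Gh was higher in glia by a log2 difference of 1.13 (SE 0.07, 95% interval 0.97 to 1.28, adjusted p = 1.5e-09), Prl by 1.13 (SE 0.08, adjusted p = 4.3e-09) and Cga by 1.15 (SE 0.10, adjusted p = 5.6e-08), in 4 of 4 libraries for Gh. Of the 7 members tested, 4 were higher in glia and 1 was lower, where 35.5% of all 20299 genes tested were higher and 34.4% lower. With the number of nuclei as the library size, which compares UMIs per nucleus, the log2 difference of Gh was -0.10 (95% interval -0.29 to 0.10, adjusted p = 0.332), of Prl -0.06 (-0.29 to 0.17, adjusted p = 0.609) and of Cga -0.02 (-0.31 to 0.27, adjusted p = 0.919). On that scale 80.5% of all genes were lower in glia and 10.9% higher, and the median gene had a log2 difference of -1.25. Without ImP 4 the per-nucleus difference of Gh was -0.16 (-0.42 to 0.11, edgeR adjusted p = 0.253), an interval that again included 0.

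**Figure D4:**
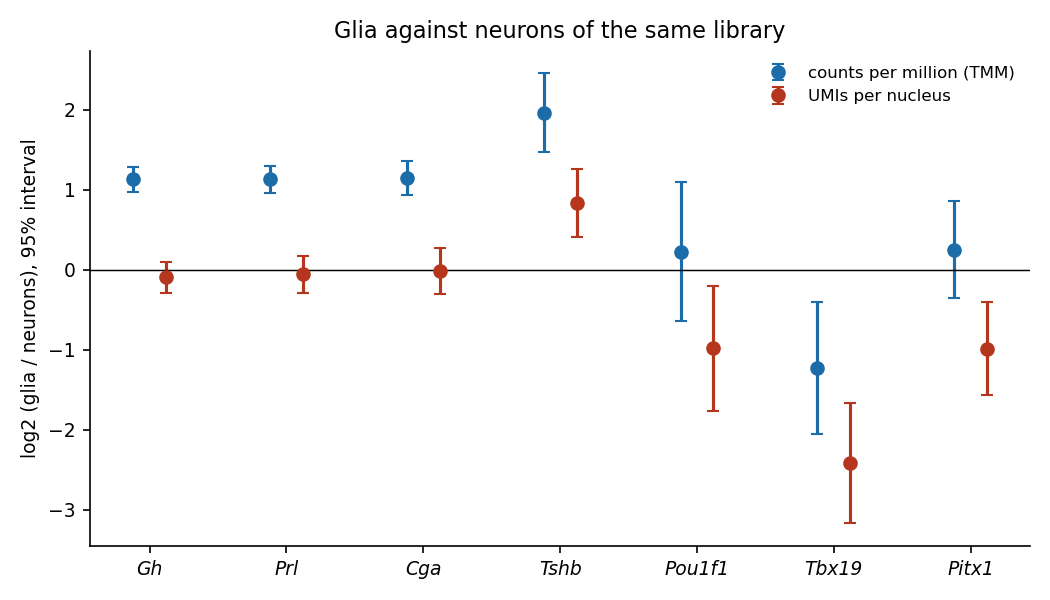
Log2 difference of glia against neurons of the same library for the 7 members tested, with 95% intervals, on the CPM scale (blue) and as UMIs per nucleus (red). Gh, Prl and Cga lie at 1.13 to 1.15 on the first scale and at -0.10 to -0.02 on the second, and Tshb is above 0 on both.

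Tshb differed from the other hormones. In vehicle 1, vehicle 2 and ImP 3 it was at 0.295, 0.605 and 0.249 UMIs per 100 neurons but at 2.57, 2.08 and 1.45 per 100 oligodendrocytes, and astrocytes held 0 to 0.245 per 100 nuclei. Oligodendrocytes were thus the highest class in each of these libraries. In ImP 4 the values were 8.48 per 100 neurons, 8.47 per 100 astrocytes and 13.0 (11.4 to 14.8) per 100 oligodendrocytes. Of the 232 Tshb UMIs of these oligodendrocytes, 52 lay in 1 nucleus, which also held 14 Cga UMIs. The Poisson interval does not cover such clumping, so the higher value of oligodendrocytes in ImP 4 leans on that nucleus. Glia exceeded neurons in the edgeR fit by a log2 difference of 1.96 on the CPM scale (SE 0.23, adjusted p = 1.8e-06) and of 0.84 per nucleus (adjusted p = 5.7e-04).

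Tshb lies on the opposite strand within the span of Tspan2 in the GRCm38 annotation, and Tspan2, a tetraspanin gene, is a transcript of oligodendrocytes. Tspan2 was at 54.5 to 70.1 UMIs per 100 oligodendrocytes and 9.42 to 12 per 100 neurons over the 4 libraries, the same order of these classes as for Tshb. In vehicle 1, vehicle 2 and ImP 3 astrocytes also lay below neurons for both genes, though narrowly for Tshb in ImP 3 (0.245 and 0.249). Precursors and microglia of these libraries held at most 1 Tshb UMI per class, with Tspan2 at 9.94 to 11.3 and 5.23 to 8.60 per 100 nuclei. In ImP 4, where Tshb was raised in every class, the classes outside oligodendrocytes did not follow. Per 100 nuclei, Tspan2 was there at 3.99 in astrocytes, 4.60 in microglia and 10.6 in neurons. Tshb was at 8.47, 10.9 (from 19 UMIs) and 8.48. The strand setting of the counting is not given in the sources used here, so reads of the 2 genes cannot be told apart, and the Tshb values in oligodendrocytes are uncertain. In vehicle 2, 1 nucleus with 18 Tshb and 16 Cga UMIs and no Gh UMI was placed among the neurons, since 16 Cga UMIs of 5546 did not reach the pituitary threshold; it held 18 of the 50 Tshb UMIs of that class. In ImP 4, 21 nuclei held 10 or more Tshb UMIs, and 7 of them were pituitary by the rule.

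Lhb was near the limit of detection in every library. It had 3 UMIs in the kept nuclei of vehicle 1, none in vehicle 2 and ImP 3, and 32 in ImP 4, of which 8 lay in pituitary nuclei. In neurons of ImP 4 it was at 0.431 CPM, from 16 UMIs. Lhb did not pass the filter on low counts and was not tested.

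Pou1f1 and Ghrhr were found mostly inside the pituitary nuclei of ImP 4, and the hormones mostly outside them. Pou1f1 had 757 of its 939 UMIs there (80.6%, exact binomial interval 77.9% to 83.1%) and Ghrhr 98 of 113 (86.7%, 79.1% to 92.4%). Of the Gh UMIs 41.9% (41.6% to 42.2%) lay in these nuclei, of Prl 35.0% and of Cga 33.7%. Tshb had 17.5%, Tbx19 20.8%, Lhb 25% and Pitx1 49.6% of their UMIs inside. The order was Ghrhr and Pou1f1, whose intervals overlap, then Pitx1, Gh, Prl and Cga, with Lhb, Tbx19 and Tshb last. Since Gh, Prl and Cga chose the nuclei, these shares are a description. They differed in vehicle 1, vehicle 2 and ImP 3, which held few pituitary nuclei. There Gh had 55.9%, 37.0% and 15.1% of its UMIs inside, and Pou1f1 3.57%, 6.45% and 44.4%, from 28, 31 and 18 UMIs. Nuclei of corticotrophs, where TBX19 acts, are not called by these 3 genes and can lie among the nuclei outside. From the shallowest to the deepest bin of ImP 4 neurons by total UMIs, Tbx19 had 31, 57, 24 and 13 UMIs. Whether these came from uncalled pituitary nuclei was not tested.

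**Figure D5:**
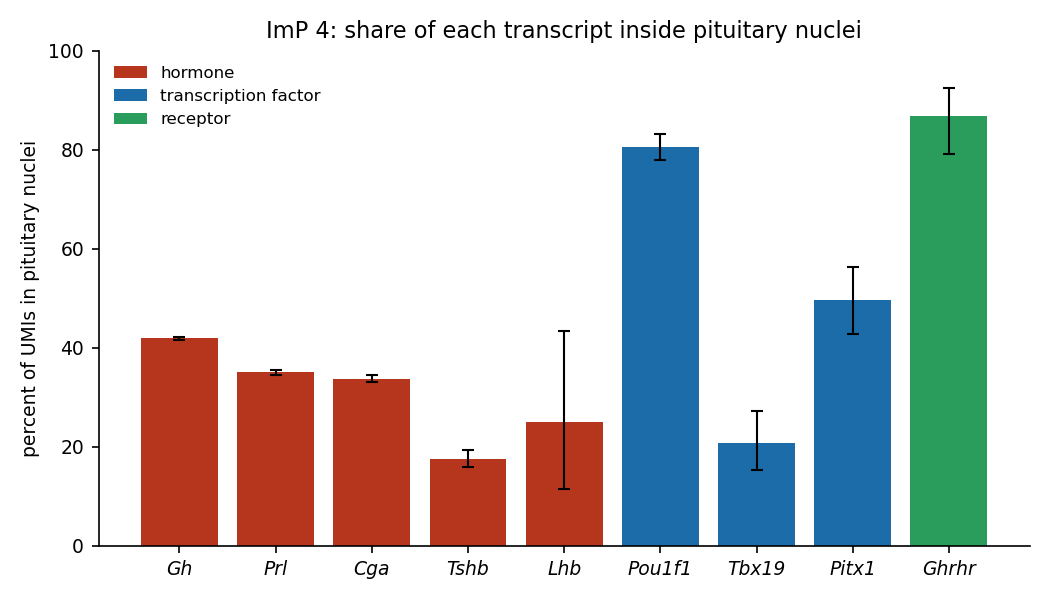
Percent of the UMIs of each gene in kept nuclei of ImP 4 that lay inside the 759 pituitary nuclei, with exact 95% binomial intervals; colours give the role of the gene. Ghrhr (86.7%) and Pou1f1 (80.6%) stand highest and Tshb (17.5%) lowest.

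Set against the level in pituitary nuclei of ImP 4, the hormones outside them were at several percent. Per nucleus, Gh in neurons was at 7.08% and in glia at 7.04% of its level in pituitary nuclei, Prl at 9.55% and 9.35%, and Cga at 9.92% and 9.90%. On the CPM scale the Gh percentages were 4.25% in neurons and 9.65% in glia. Pou1f1 was at 1.14% of its pituitary level per nucleus in neurons and 0.861% in glia, and Ghrhr at 0.515% and 1.07%, from 6 and 5 UMIs. Tshb reached 20.1% and 25.3%, with the overlap named above. In vehicle 1 and ImP 3, with 7 and 6 pituitary nuclei, Gh in neurons was at 0.0498% and 0.234% per nucleus of the level in pituitary nuclei.

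Pou1f1 was not used by the rule and shows how the called nuclei vary. Among the 132 nuclei of ImP 4 whose highest hormone count was 100 UMIs or more, 69.7% (61.1% to 77.4%) had a Pou1f1 UMI, and among the 211 with 50 to 99 UMIs 54.0% (47.1% to 60.9%). Among the 144 with 10 to 14 UMIs only 4.17% (1.54% to 8.85%) had one, and among 274 other kept nuclei in that same range of hormone UMIs 3.65% (1.76% to 6.61%). Nuclei with 3 to 5 hormone UMIs outside the rule had Pou1f1 in 0.836% of cases. The intervals of the called and the other nuclei with 10 to 14 hormone UMIs overlapped, and the called ones were shallow, with a median of 1621 UMIs for the 10 to 14 range against 4051 for the other nuclei of that range. By the marker lists alone, 81 of the 759 nuclei would be oligodendrocytes and 42 astrocytes, each set with a median of 14 UMIs of its highest hormone, and 348 would be neurons, with a median of 53.

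At the threshold itself, the nucleus of ImP 4 just inside by Gh had 10 Gh UMIs of 1992 (5020 CPM) and the one just outside 11 of 2232 (4928 CPM). Within 1000 CPM of the threshold, and with at least 10 Gh UMIs, 59 nuclei lay above it and 51 below. In vehicle 1 the nearest values were 10115 CPM inside and 1808 CPM outside, so that no such crowding was present there.

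Pou1f1 outside the pituitary nuclei was at 0.645, 0.650, 0.163 and 2.78 CPM in neurons, in the same order of libraries, from 25, 25, 6 and 103 UMIs. In ImP 4 it was 4.27 times the next library. Tbx19 in neurons was at 0.490, 0.962, 0.708 and 3.37 CPM and Pitx1 at 1.39, 1.01, 1.22 and 1.51 CPM, the latter with ImP 4 only 1.08 times vehicle 1. Ghrhr had 1, 1, 2 and 6 UMIs in neurons. In the edgeR fit of glia against neurons, Tbx19 was lower in glia by a log2 difference of -1.23 (SE 0.39, adjusted p = 0.0109), while Pitx1 (0.25, 95% interval -0.36 to 0.85, adjusted p = 0.447) and Pou1f1 (0.23, -0.65 to 1.10, adjusted p = 0.636) did not pass. Per nucleus all 3 factors were lower in glia in the edgeR fit, with log2 differences of -2.41 for Tbx19 (adjusted p = 1.4e-06), -0.99 for Pitx1 (adjusted p = 0.0022) and -0.98 for Pou1f1 (adjusted p = 0.018), as were 80.5% of all genes. Without vehicle 2 the per-nucleus call of Pou1f1 was lost (-0.67, edgeR adjusted p = 0.075). The Tbx19 call on the CPM scale was lost in the edgeR fits without ImP 4 (-0.92, adjusted p = 0.174), with 6 markers required for a class (-0.82, adjusted p = 0.249), without the library block (-1.16, adjusted p = 0.289) and, in an alternative chosen after seeing the data, with a pituitary threshold of 20 UMIs (-0.48, adjusted p = 0.215). It was also lost with DESeq2 (-1.21, adjusted p = 0.0651).

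ImP was then compared with vehicle across libraries by edgeR's quasi-likelihood test. No member passed in neurons (0 of 7 tested) or in glia (0 of 4 tested), where 0.00493% of all genes tested passed in neurons and 0% in glia. The 1 gene that passed in neurons was Mgp, an extracellular matrix gene that is not a member and was named after its value was seen. At an unadjusted p under 0.05 edgeR held 1462 genes in neurons and 1782 in glia, and DESeq2 called 252 and 66, with Cga in glia (adjusted p = 0.0391) the 1 member among them. The log2 fold changes of the hormones in neurons were 6.33 for Gh (SE 1.67, adjusted p = 0.374), 6.69 for Prl (SE 1.86, adjusted p = 0.406) and 7.39 for Cga (SE 2.17, adjusted p = 0.441). In glia they were 6.28 for Gh (SE 1.58, adjusted p = 0.326), 6.65 for Prl (SE 1.75, adjusted p = 0.326) and 7.70 for Cga (SE 2.12, adjusted p = 0.328). Tshb had 3.54 in neurons (SE 1.34, adjusted p = 0.635) and 2.37 in glia (SE 0.95, adjusted p = 0.421). The factors in neurons had 1.50 for Tbx19, 1.20 for Pou1f1 and 0.20 for Pitx1. With 6 markers required for a class, Tbx19 had 0.16. The median over the tested members was 3.54 in neurons and 6.46 in glia, against -0.01 over all genes in both. Members were chosen by counts high in 1 ImP library, so their p-values, fold changes and medians on this contrast are a description.

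The fold changes depended on which ImP library was used. Without ImP 4 the log2 fold change of Gh in neurons was 1.57, of Prl 1.34 and of Cga 1.07. Those of Tshb (-0.61), Pou1f1 (-1.96) and Tbx19 (-0.03) were below 0. In glia without ImP 4, Gh had 1.50. Without ImP 3 the log2 fold changes in neurons were 7.31 for Gh, 7.68 for Prl and 8.39 for Cga, and in glia 7.24, 7.63 and 8.68. In those fits 1 library stands for ImP and is assumed to vary as the vehicle libraries do, so only the sizes are given here. Without ImP 3 that library is ImP 4, whose high counts were known when the members were chosen.

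Library names start with 111 (vehicle 1 and ImP 3) or 113 (vehicle 2 and ImP 4), a number the labels do not explain. Within 111 the Gh level in neurons of ImP was 2.10 times that of vehicle, and within 113 it was 260 times. For Cga the ratios were 4.54 and 214 and for Pou1f1 0.253 and 4.27, so Pou1f1 ran in opposite directions. With that number as a term of the edgeR fit, 5 members passed in neurons (Gh at a log2 fold change of 4.76, adjusted p = 0.0104) and Cga passed in glia. That fit called 924 of all genes in neurons and 159 in glia, against 1 and 0 without the term. With 4 libraries it leaves little from which to estimate the spread.

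Counting genes at 4 times or more in ImP 4 over each other library gave 9 genes in neurons (0.0444% of those tested) and 5 in glia (0.0308%). In neurons 5 of the 9 were members (Gh, Prl, Cga, Tshb and Pou1f1), next to Pomc, Epcam, Hspa1b and Gm14618. In glia 4 of the 5 were members (Gh, Prl, Cga and Tshb), and the fifth was the heat shock gene Hspa1b. The non-members were named after their values were seen. Members were chosen with their high counts in ImP 4 known, so their number here is a description.

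The genes most like Gh were sought over 20 sums of 4 libraries and 5 classes, by Pearson's r of log2(CPM + 1). These sums share their libraries, and ImP 4 is 1 of them, so r is a description. Of 17340 genes ranked, Prl (r = 0.963), Cga (0.949), Fshb (0.946), Pomc (0.944) and Epcam (0.939) came first, followed by Cyp2f2 (0.874), Pou1f1 (0.847), Tshb (0.825), Pcsk1n (0.820) and Manf (0.802). Fshb encodes the beta subunit of follicle-stimulating hormone and Pomc the precursor of corticotropin. Pitx1 ranked 508 (r = 0.486).

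A further list of 29 pituitary genes, with hormones, receptors, factors and secretory proteins, was read in the same classes. None of 21 tested in neurons and none of 15 tested in glia passed edgeR's test of ImP against vehicle; the median log2 fold change was 0.12 in neurons and 0.50 in glia, against -0.01 over all genes. Fshb was at 0, 0, 0 and 10.5 CPM in neurons and at 0, 0, 0.153 and 23.3 CPM in glia, again from vehicle 1 to ImP 4 in the order above. Pomc, which arcuate neurons of the hypothalamus also make, was at 33.1, 27.5, 43.2 and 234 CPM in neurons and 31.6, 41.3, 112 and 405 CPM in glia. The rule does not use Pomc, so nuclei of pituitary Pomc cells may be among these neurons and glia, which was not tested. The receptor genes Trhr and Drd2 in neurons were at 16.5 and 8.49 CPM in ImP 4, against 14.6 to 15 and 7.40 to 9.80 CPM in the other libraries. In pituitary nuclei of ImP 4 Trhr was at only 16.5 CPM and Drd2 at 37.9 CPM, so these 2 genes are weak gauges of free RNA. Gnrhr, the receptor for gonadotropin-releasing hormone, was at 144 CPM in pituitary nuclei of ImP 4 and 1.37 CPM in its neurons, against 0.390 to 0.799 CPM in neurons of the other libraries.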

How the data were processed

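Single nuclei of 4 hypothalamus libraries were analysed from deposited raw UMI count matrices, made by the authors; the submitters' processing notes list Cell Ranger 8.0.1, Seurat 5.0.0 and the build GRCm39. How intronic reads and strand were handled, and with which annotation, is not given in the sources used here. Nuclei with at least 500 genes and at most 5% mitochondrial UMIs were kept. A nucleus was placed in the class with the largest share of its markers seen, with at least 3 markers and a lead of 0.10; clusters and doublet callers were not used. Counts were summed per library and class, with pituitary nuclei left out of neurons and glia. Sums were tested with edgeR 4.0.16 (limma 3.58.1, R 4.3.3; TMM, low counts filtered at a minimum count of 10, quasi-likelihood test, Benjamini-Hochberg adjustment over all genes, threshold 0.05), with DESeq2 1.42.0 as an alternative. ImP against vehicle had 2 libraries per group; glia against neurons had the library as a block. The edgeR step was tested on simulated counts. Other alternatives changed the scaling, filters, thresholds and libraries. Descriptions used Python 3.11.15, numpy 2.4.6, pandas 2.3.3 and scipy 1.17.1. Genes named are the 9 members, examples from 29 listed pituitary genes and the 10 genes most like Gh among those at 5 CPM or more in at least 1 sum, with listed peptide genes for comparison; Mgp, Hspa1b, Gm14618 and Tspan2 were named after their values were seen. The members and lists were chosen with earlier results of these data known.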

Additional observations from a re-analysis of the deposited data

Results flagged for a closer look

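Barcodes with fewer than 500 genes were used in no comparison, and they held hormone transcripts above the level of the vehicle libraries. There Gh was at 9980 CPM in ImP 4 and at 422 CPM in ImP 3, against 63.1 and 84.7 CPM in vehicle 1 and vehicle 2. Prl was at 3535 CPM in ImP 4 against 12.6 and 23.1 CPM in the vehicle libraries. Cga was at 1130 CPM in ImP 4, and no UMI of it was seen in such barcodes of the vehicle libraries. In ImP 4, 305 such barcodes held 5.59 Gh UMIs each on average and 86.6% held at least 1. The summed Gh, Prl and Cga UMIs of these barcodes were 68.1% Gh, 24.1% Prl and 7.71% Cga. Barcodes that met the pituitary rule were not taken out of this set. Before the limits on genes and mitochondrial UMIs, 806 barcodes of ImP 4, 7 of ImP 3 and 2 of vehicle 2 met it. After the limits these were 759, 6 and 1. How far such barcodes carry the levels given here was not tested.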

How the results depend on the processing

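With 2 libraries per group, 1 of which stood apart, the comparison of ImP with vehicle has little precision, and counts of a few UMIs limit Lhb, Ghrhr and the factors. ImP and vehicle libraries share no replicate numbers; the one way to pair them is the number in the library names, which the labels do not explain. No member was called in neurons or glia, but 5 were in neurons and 1 in glia with the library name number as a term, which pairs vehicle 1 with ImP 3 and vehicle 2 with ImP 4, 1 in glia with DESeq2, and 0 to 7 (neurons) and 0 to 5 (glia) on leaving out each library, the most without ImP 3. Over all genes, the 1 call in neurons became 252 with DESeq2, 0 without the filter on low counts, 924 with the name number and 0 to 1382 on leaving out each library; the 0 calls in glia became 66 with DESeq2, 159 with the name number, 8 at 1000 genes per nucleus, 2 with 6 markers required and 5 to 509 on leaving out each library. Without ImP 4 the log2 fold changes of Tbx19 (-0.028), Tshb (-0.61) and Pou1f1 (-1.96) in neurons and Tshb (-0.45) in glia changed sign; the highest values on leaving out a library, without ImP 3, were 2.24, 4.51, 2.13 and 3.26. The cause of these changes was not tested.

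In glia against neurons 5 members were called, and 0 without the replicate block, where Gh had a log2 difference of 1.18 (edgeR adjusted p = 0.585). Leaving out each library gave 4 to 5 calls, and 3 to 4 as UMIs per nucleus (4 with all libraries), a scaling that lowers glia because they hold fewer UMIs. On that scale, added leave-one-out values in the order vehicle 1, vehicle 2, ImP 3, ImP 4 were -0.11, -0.031, -0.12 and -0.16 for Gh (-0.097 with all libraries), -0.053, -0.023, -0.089 and -0.11 for Prl (-0.059), -0.87, -0.82, -0.97 and -1.35 for Pitx1 (-0.99), -0.77, -0.67, -1.04 and -2.33 for Pou1f1 (-0.98) and -0.025, 0.057, -0.067 and -0.082 for Cga (-0.017). On the CPM scale Pou1f1 changed sign with DESeq2 (-0.23), without nuclei above the 90th percentile of UMIs (-0.30) and without ImP 4 (-1.05; highest 0.55, without vehicle 2), and Pitx1 with 6 markers required (-0.19) and without ImP 4 (-0.072; highest 0.42, without vehicle 2). The Gh level in neurons of ImP 4, 4.25% of that in pituitary nuclei, was 9.33% with the pituitary threshold at 2500 CPM and 5 UMIs, 4.40% at 1000 genes, 4.75% below the 90th percentile, 3.58% with 6 markers and 3.72% with 20 UMIs, the last added after seeing the data. In glia the same settings moved 9.65% to 16.3%, 7.44%, 11.4%, 8.22% and 8.70%. At 2500 CPM and 5 UMIs the pituitary nuclei numbered 3 in vehicle 2 and 3143 in ImP 4.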

Other observations

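Transcripts of hypothalamic peptides made by small sets of neurons were also read in glia. Avp (vasopressin) was at 313, 530, 585 and 837 CPM in glia of vehicle 1, vehicle 2, ImP 3 and ImP 4, or 152% to 162% of its level over all kept nuclei of the same library. Percentages in this paragraph are on the CPM scale, which raises transcripts in shallow nuclei. Glia were shallower, with a median of 1608 UMIs against 3757 over all kept nuclei in vehicle 1, and 1446.5 against 2820 in ImP 4. The percentages therefore do not show that a glial nucleus held more Avp than the average kept nucleus. Oxt (oxytocin) was at 218, 341, 460 and 606 CPM in glia, Pmch (melanin-concentrating hormone) at 329, 350, 545 and 580 CPM and Hcrt (orexin) at 124, 131, 219 and 249 CPM. Agrp, a peptide of arcuate neurons, was at 47.1 to 69.4 CPM in glia, which was 75.6% to 96.4% of its level over all kept nuclei. Avp was at 0.633, 0.937, 1.03 and 1.51 UMIs per glial nucleus, so that for this transcript ImP 4 was highest but within 1 order of magnitude of vehicle 1, unlike Gh. None of these levels was tested between groups.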
